A study of Saccharomyces cerevisiae with 28 samples.

Results

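The genes described here encode the proteins of the large (60S) subunit of the budding yeast ribosome. They were taken as every gene of the array whose platform symbol is RPL followed by a digit, together with the stalk genes RPP0, RPP1A, RPP1B, RPP2A and RPP2B, leaving out RPL7A, RPL7B, RPL22B and RPL30. This gave 68 of the 982 named genes and 172 of the 1457 named probes. No measured value entered this choice. Of the 68 genes, 17 had 1 probe, 1 had 2, 47 had 3 and 3 had 4.

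The large subunit holds the centre that joins amino acids and the tunnel through which the new chain leaves, and a protruding stalk made of P0, P1 and P2 proteins recruits the translation factors. In budding yeast most of these proteins are encoded by a pair of duplicated genes, called A and B copies, whose products are alike or nearly alike. Ribosomal protein genes supply a large share of all intron-containing transcripts in growing yeast, so they carry much of the load of the spliceosome. Splicing-specific arrays follow such genes with several probes each, and exons, introns and exon junctions are the usual targets of such probes.

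RNA from 8 deletion strains was measured on 2-colour spotted arrays, with RNA of each mutant on the same array as RNA of wild-type cells grown and collected alike. The csn12, YPR045C (THP3), ist3, csn9, pci8 and isy1 strains were in logarithmic growth at 30 °C, whereas tgs1 and ynr004w (SWM2) were taken before a shift from 30 °C to 16 °C (0 min) and 10, 25 and 40 min into it. The study asked how the loss of non-essential genes linked to splicing by interaction screens changes splicing. IST3 encodes a subunit of the RES complex and ISY1 a Prp19-associated protein, both of the spliceosome; CSN9, PCI8 and CSN12 belong to the COP9 signalosome or a related complex; TGS1 trimethylates the caps of small nuclear and nucleolar RNAs, and the SWM2 product works with it. Each of the 14 conditions had 2 arrays with exchanged dyes, 28 in all, with 8893 to 9199 of 9216 spots holding a value.

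All values are log2 ratios of mutant over wild type, given as estimate ± SE. The log base and the direction are the likely reading and are not given outright, and with the opposite direction "higher" would read "lower" throughout. Both arrays of a dye swap were averaged to a pair mean, which counts as 1 replicate. A gene or probe was called higher or lower at an adjusted p under 0.05 (limma over the 14 pair means in 10 strain-by-temperature groups, Benjamini-Hochberg over all genes, probes, linked genes or paralog pairs of a comparison). The 8 groups with 1 pair borrow their error from the 16 °C time points. The p-values over pair means thus rest on the spread between pair means of different time points at 16 °C. That spread can hold change with time, and the spread between both arrays of a pair does not enter it. Nothing says that arrays came from separate cultures, so it may also be technical. A second fit over the 28 single arrays with a term for dye is given beside the results as "over single arrays". It counts both arrays of a pair as separate samples. It called fewer members by gene mean in every group but is not stricter for each value. For RPP0 in tgs1 at 16 °C its adjusted p was 1.3e-05, against 0.000134 over pair means.

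The labels could not be checked from the deleted genes. On the arrays labelled ist3 IST3 read 0.15, ISY1 read -0.12 on those labelled isy1, and TGS1 read -0.09 at 30 °C and -0.28 at 16 °C on those labelled tgs1, while the pairs of other strains reached -0.24, -0.11 and -0.31 for these genes. The other 5 deleted genes had no named probe. Genes specific to alpha cells were all higher in YPR045C and ist3 (5 of 5, medians 3.02 and 2.23) and all lower in tgs1 and ynr004w (5 of 5 at each temperature, medians from -2.16 to -1.21), and the 2 measured genes specific to a cells went the other way in each of these (medians -2.65 and -1.78, and 1.69 to 2.15), so mating type moves with these strains. In csn12 both a-cell genes were lower as well (-1.13 and -0.73), with 1 alpha-cell gene higher and 1 lower. The part of mating type in the results below was not tested. Both arrays of a pair correlated above 0 over all named probes in 4 of 14 pairs as deposited and in 12 of 14 after the mean of each dye orientation was taken off, with r = -0.09 in csn9 and r = -0.37 in tgs1 at 30 °C. Single-array values thus carry large probe-specific dye effects.

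Gene means, the average over the probes of a gene, lay on both sides of wild type in every strain. At 16 °C most called members were higher than wild type: 33 of 68 were higher and 4 lower in tgs1, beside 46.1% of all genes called in either direction, and 41 were higher and 1 lower in ynr004w, beside 32.8%. In isy1 the balance was the other way, with 6 higher and 26 lower beside 42.2% of all genes. The ist3 strain had 23 higher and 6 lower beside 56.4%, so its share of called members (42.6%) was below that of all genes. In csn12, 5 were higher and 16 lower beside 36.8%.

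In csn9 17 members were higher and 6 lower beside 21.9% of all genes, and in pci8 21 were higher and 7 lower beside 32.0%. The YPR045C strain had 1 higher and 1 lower beside 18.8%. At 30 °C tgs1 had 2 higher and 1 lower beside 5.7%, and ynr004w 2 higher and 1 lower beside 5.91%. Member medians ran from -0.12 in isy1 to 0.13 in ynr004w at 16 °C, against -0.02 to 0.01 for all genes.

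Over single arrays the members called higher and lower numbered 0 and 7 in csn12 (7.03% of all genes called), 10 and 0 in ist3 (12.9%), 4 and 0 in csn9 (2.65%), 3 and 0 in pci8 (2.65%) and 1 and 9 in isy1 (11.7%). They numbered 15 and 1 in tgs1 at 16 °C (12.5%) and 19 and 1 in ynr004w at 16 °C (9.16%). No member passed there in YPR045C (1.12% of all genes called), in tgs1 at 30 °C (1.12%) or in ynr004w at 30 °C (1.02%). A gene mean also depends on which probes enter it. Leaving out the probe called class A below changed the split to 9 higher and 20 lower in ist3, 21 and 25 in tgs1 at 16 °C and 20 and 13 in ynr004w at 16 °C, so the excess of higher members over lower ones was lost in ist3 and in tgs1 and became smaller in ynr004w. Only the 38 members with linked probes, described below, lose a probe in this step. The 17 members with 1 probe and all others outside these 38 are left as they are.

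**Figure D1:**
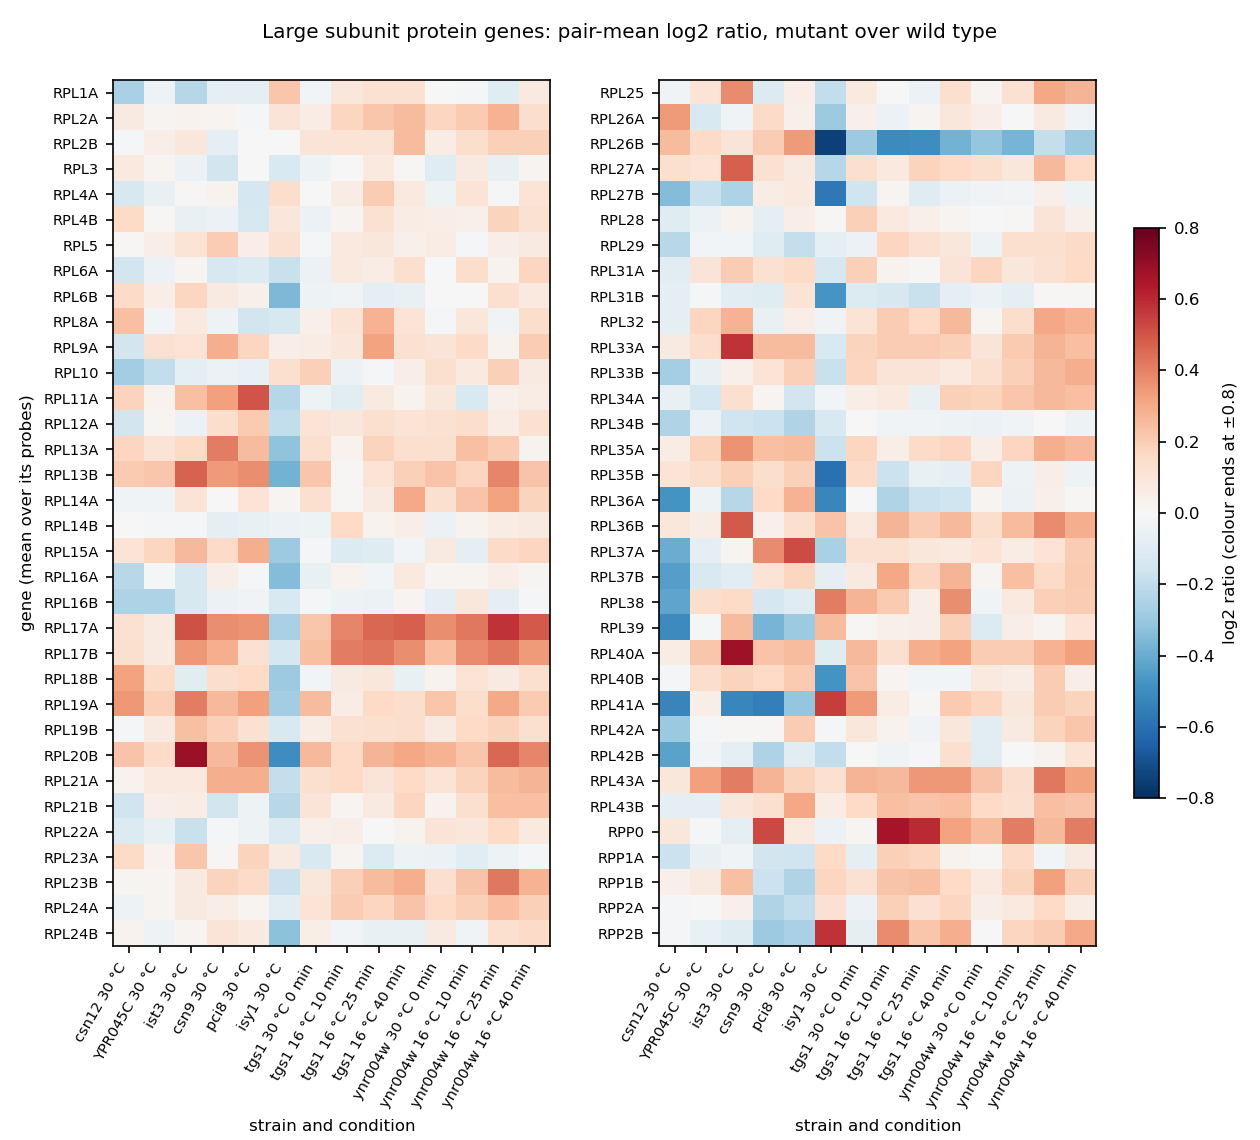
Pair-mean log2 ratios (mutant over wild type, colour) of the 68 large subunit genes (rows, mean over the probes of each gene) in the 14 conditions (columns). RPL26B is low in isy1 and in both cold-shift strains, RPP0 is high in csn9 and at 16 °C, and RPL41A is low in csn12, ist3 and csn9 but high in isy1.

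Probes of the same gene moved apart, and over pair means this was the most regular pattern of the family. Genes with 3 probes could be linked by the positions of their wells on the array, and the 3 probes of a linked gene are called class A, B and C. Which well is class A was set from the ist3 values of genes that are not ribosomal, and which part of a transcript each class reads is not given here. The class contrast is the class A value minus the mean of the class B and C values of that gene. It could be formed for 187 genes, of which 38 are members. Array centring cancels in it.

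The class contrast was above 0 in both spliceosome strains and in both cold-shift strains. In ist3 34 of 38 members were higher and none lower, beside 76.5% of the linked genes called, with a member median of 0.84 against 0.48 in the other linked genes. In isy1 28 were higher and 1 lower beside 58.8%, with medians of 0.69 and 0.23. At 16 °C all 38 were higher in tgs1 (77.5% of linked genes called, medians 0.62 and 0.31) and all 38 in ynr004w (76.5%, medians 0.61 and 0.30). At 30 °C 21 were higher and none lower in tgs1 beside 34.8%, and 14 were higher and none lower in ynr004w beside 32.1%. Called members with the same sign on every array were fewer: 30 in ist3, 26 in isy1, and 21 in tgs1 and 25 in ynr004w at 16 °C. At 30 °C they numbered 14 and 10. Over members, the contrasts on both arrays of a pair correlated at r = 0.06 in ist3 and 0.37 in isy1. At 16 °C r ran from -0.76 to -0.51 in tgs1 and from -0.57 to -0.36 in ynr004w.

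In the other log-phase strains the contrast was small or turned down. The csn12 strain had 7 members higher and 1 lower beside 24.6% (median 0.12), and YPR045C had 7 higher and none lower beside 17.1% (median 0.16). In csn9 1 member was higher and 6 lower beside 10.2% (median -0.13), and in pci8 1 was higher and 6 lower beside 18.2% (median -0.09). The called share of members was 21.1% in csn12 and 18.4% in each of the other 3. It lay within a few points of the share of linked genes in all but csn9, where the difference was not tested.

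Over single arrays the contrast kept most of its calls in 4 groups. There 30 members were higher in ist3 (57.8% of linked genes called), 23 in isy1 (33.2%), 37 in tgs1 at 16 °C (64.7%) and 33 in ynr004w at 16 °C (59.4%), and none was lower. At 30 °C 7 were higher in tgs1 (18.2%) and 9 in ynr004w (17.1%), with none lower. In csn12 3 were higher (4.81%), in pci8 1 was lower (1.6%), and none passed in YPR045C (1.07%; 13 at an unadjusted p under 0.05 over pair means) or in csn9 (0.0%; 18 at an unadjusted p under 0.05 over pair means).

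By median both sides of the contrast contributed in most of these groups, class A lying above 0 and classes B and C below it. Single members had this order less often, 23 of 38 in ist3 and 25 in isy1. At 16 °C it held in 23 members in tgs1 and 17 in ynr004w. In ist3 the member medians were 0.63 for class A, -0.08 for B and -0.29 for C, and class A was the highest probe in 37 of 38 members. In isy1 they were 0.15, -0.36 and -0.41, so classes B and C made up the larger part, and class A was highest in 35 of 38. At 16 °C the medians were 0.46, -0.15 and -0.15 in tgs1 and 0.56, -0.05 and -0.08 in ynr004w, with class A highest in all 38 members of each strain. In csn9 the order was reversed, at 0.00, 0.10 and 0.15, and class A was the lowest probe in 22 of 38 members.

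The same counts by single probe, over all 172 member probes, were 51 higher and 45 lower in ist3 (57.4% of all named probes called), 26 and 72 in isy1 (42.9%), 64 and 53 in tgs1 at 16 °C (49.7%) and 62 and 28 in ynr004w at 16 °C (35.7%). Of the 38 class A probes 31 were higher and none lower in ist3, whereas of the class C probes 2 were higher and 23 lower. In isy1 14 class A probes were higher and none lower, none of the class B probes was higher and 26 were lower, and 1 class C probe was higher and 28 lower. A gene mean therefore averaged probes of opposite sign in many members.

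**Figure D2:**
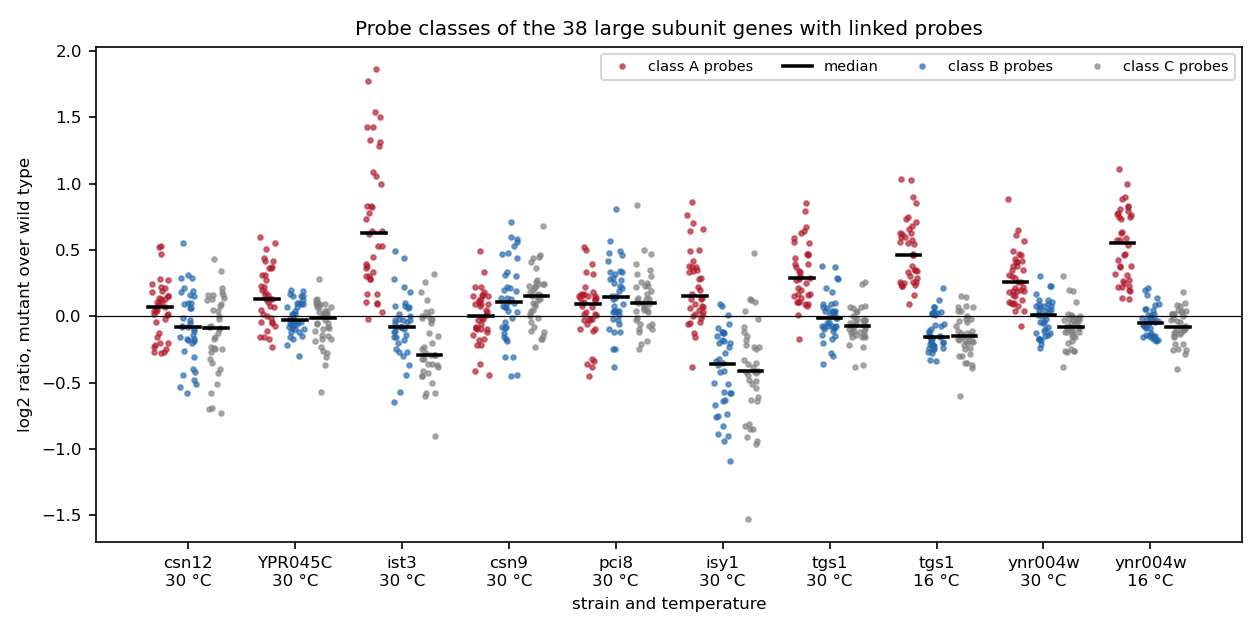
Log2 ratios (mutant over wild type) of the class A, B and C probes of the 38 linked large subunit genes in the 10 strain-by-temperature groups; each point is 1 probe and each black bar the median of 38. In ist3, isy1 and both cold-shift strains the class A median lies above those of B and C, and in csn9 and pci8 it lies below both. The points of the classes overlap in every group.

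Linked genes of the small subunit gave medians close to these. Their class contrast had a median of 0.91 in ist3, 0.80 in isy1, 0.72 in tgs1 at 16 °C and 0.72 in ynr004w at 16 °C over 34 genes, while 113 linked genes outside both subunits had 0.32, 0.18, 0.24 and 0.20. The contrast is thus not particular to the large subunit. That difference between gene sets was not tested.

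Members differed widely in which strain moved them most. RPL35A, whose product sits at the tunnel exit, and RPL33A had the highest contrasts in ist3. The class contrast of RPL35A was 1.56 and 2.68 on the arrays of ist3 and 0.45 and 0.74 on those of isy1. In ist3 it was 2.12 ± 0.17, a 4.35-fold ratio (adjusted p = 2.31e-07, 2.19e-08 over single arrays), and in isy1 0.59. RPL33A stood at 1.46 and 2.39 on the ist3 arrays but at -0.18 and 0.61 on the isy1 arrays, or 1.92 ± 0.14 (adjusted p = 1.63e-07) against 0.22 ± 0.14 (adjusted p = 0.191). Its arrays do not overlap between these strains. RPL43A (1.63) and RPL13B (1.62) followed in ist3.

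RPL36A showed the opposite order. Its contrast was 2.61 and 1.54 on the arrays of isy1 and 1.13 and 0.46 on those of ist3. In isy1 this was 2.08 ± 0.12, a 4.21-fold ratio (adjusted p = 2.8e-08, 1.49e-10 over single arrays), and in ist3 0.80 ± 0.12. All 3 of its probes contributed in isy1, with class A at 0.86 (1.18 and 0.54 on the arrays), class B at -0.89 and class C at -1.53 (-1.88 and -1.19), the lowest member probe of that strain. RPL37B (1.27), RPL16A (1.25) and RPL31A (1.18) came next in isy1. The difference between ist3 and isy1 was not tested for these genes.

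RPP1B, a stalk gene, was the exception. It was the only member whose contrast passed below 0 in isy1, at -0.35 ± 0.13 (adjusted p = 0.0325, but 0.277 over single arrays), with -0.09 and -0.61 on the arrays. In the same gene the contrast was 0.87 in ist3, 1.0 ± 0.13 in tgs1 at 30 °C and 0.99 ± 0.07 in ynr004w at 16 °C. Its class A probe read 0.79 in tgs1 and 0.61 in ynr004w at 30 °C. RPL17B, RPL23A, RPL6A and RPL20B were near 0 in isy1 as well, at -0.03, 0.02, 0.07 and 0.17, and none of these 4 passed there. In ist3 RPL6A, RPL6B, RPL28 and RPL22A did not pass, at 0.13, 0.19, 0.21 and 0.25.

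Genes of the csn9 and pci8 strains that passed below 0 were led by RPL37A, which encodes a zinc-binding protein. Its contrast was -0.74 and -0.68 on the csn9 arrays and -0.70 and -1.13 on the pci8 arrays. In the other strains it had opposite signs on the arrays of most pairs, such as 0.74 and -0.74 in tgs1 at 30 °C. The estimates were -0.71 ± 0.10 in csn9 (adjusted p = 0.00155, 0.12 over single arrays) and -0.92 ± 0.10 in pci8 (adjusted p = 9.06e-05, 0.00665 over single arrays). In pci8 this came from B and C, which read 0.81 and 0.84, with class A at -0.10. RPL22A was at -0.60 and -0.42 in these strains, and RPL14B at -0.49 and RPL13B at -0.44 in pci8, and none of these 4 values passed over single arrays (adjusted p from 0.119 to 0.23). In csn12 RPL42A (0.74 ± 0.11), RPL35A (0.71) and RPL42B (0.65 ± 0.10) had the highest contrasts, the RPL42 copies with class A at 0.19 and 0.01 and class C at -0.69 and -0.70.

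**Figure D3:**
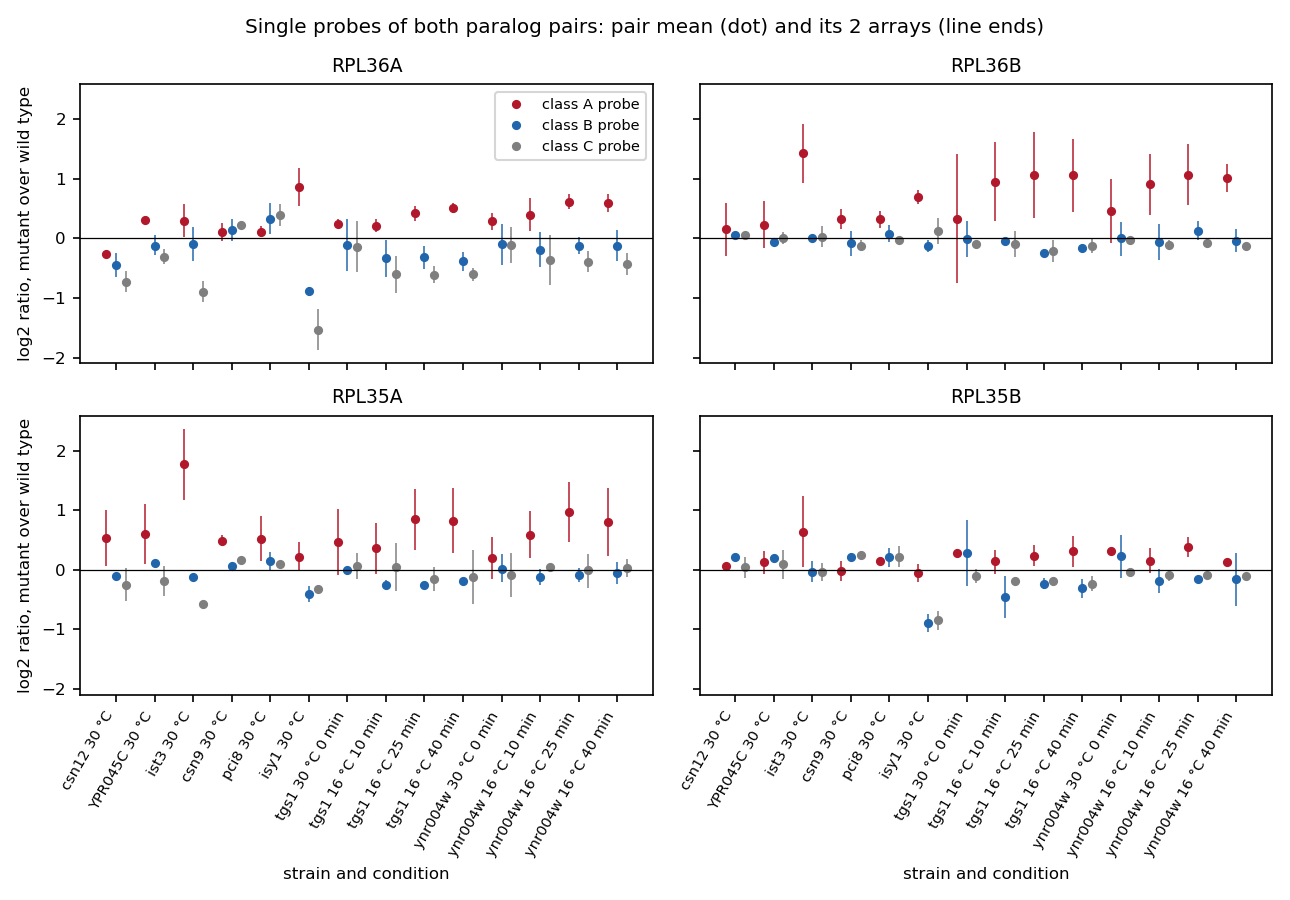
Log2 ratios of the class A, B and C probes of RPL36A, RPL36B, RPL35A and RPL35B in the 14 conditions; dots are pair means and lines join both arrays of the dye swap. The class C probe of RPL36A is lowest in isy1 (-1.53), the class A probes of RPL36B and RPL35A are highest in ist3 (1.43 and 1.77), and several lines are long because the arrays of a dye swap read differently.

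A wider linking of wells joined 8 more members, among them RPL17A, RPL2A, RPL2B and RPL39, and their probes are also named by class. The last 5 members with several probes could not be linked, and their probes are numbered instead. In 4 of these a single probe stood above the others in the spliceosome and cold-shift strains, a description chosen after the values were seen. Probe 3 of RPL32 read 1.61 in ist3, 0.38 in isy1, 1.01 in tgs1 at 16 °C and 0.97 in ynr004w at 16 °C, while its other 3 probes lay between -0.21 and -0.10 in ist3. Probe 2 of RPL24A read 1.09, 0.60, 0.80 and 0.76 in these groups, and probe 2 of RPL14A 0.89, 0.44, 0.51 and 0.78. Probe 2 of RPL29 was at 0.21 in ist3 but at 0.55 in isy1, 0.51 in tgs1 at 16 °C and 0.57 in ynr004w at 16 °C. All of these passed over pair means except RPL14A in isy1 (adjusted p = 0.0676). Probe 3 of RPL32 also stood above its other probes in YPR045C, at 0.64 (adjusted p = 0.00167, 0.00506 over single arrays). In csn12 it read 0.29 (adjusted p = 0.0318, 0.218 over single arrays). The named probes of RPL24A, RPL14A and RPL29 passed in neither of these strains.

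RPL26B, with 2 probes, was the other unlinked member. Both its probes were lower in isy1, at -0.98 and -0.52, and in tgs1 at 16 °C, at -0.58 and -0.35. The gene mean of RPL26B, a protein at the tunnel exit, read -1.19 and -0.31 on the isy1 arrays and was -0.75 ± 0.07 (adjusted p = 2.5e-05, 0.00046 over single arrays), the lowest gene mean of the family in any strain. In the cold-shift strains its first arrays read -0.94 to -0.47 and its second arrays -0.14 to 0.09 at 16 °C, so the size of the value depended on the dye, and in 3 of these 6 pairs both arrays were below 0.

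Through the cold shift the class contrast was larger at 16 °C than at 30 °C in most members, but few passed the test of the difference. The member median was 0.36 at 0 min and 0.48, 0.72 and 0.64 at 10, 25 and 40 min in tgs1, and 0.26, 0.53, 0.65 and 0.65 in ynr004w. The difference of 16 °C and 30 °C was above 0 in 33 of 38 members in tgs1 (median 0.26, against 0.12 in other linked genes) and in 37 of 38 in ynr004w (median 0.24, against 0.08). It passed for RPL20B and RPL36B in each strain, beside 1.07% of linked genes in tgs1 and 1.6% in ynr004w, and over single arrays for no member (14 members had an unadjusted p under 0.05 over pair means in each strain). With 3 pairs at 16 °C and 1 at 30 °C the counts at each temperature differ in power and cannot be set against each other.

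RPL20B began near 0 at 30 °C. Its contrast read -0.04 and -0.28 on the tgs1 arrays at 0 min, and 0.14 and 0.71, 0.51 and 1.01, and 0.67 and 1.11 at 10, 25 and 40 min, with no overlap between temperatures. In ynr004w it read -0.10 and 0.02 at 0 min and 0.38 to 1.35 afterwards, again with no overlap. The differences were 0.85 ± 0.19 (adjusted p = 0.0438, 0.318 over single arrays) and 0.82 ± 0.19 (adjusted p = 0.0397, 0.315 over single arrays). RPL36B went from 0.38 at 0 min to 1.03, 1.29 and 1.20 in tgs1 and from 0.48 to 0.99, 1.04 and 1.10 in ynr004w, a difference of 0.79 ± 0.13 (adjusted p = 0.00555) and 0.57 ± 0.13 (adjusted p = 0.0397). Its arrays overlapped between temperatures, since the second array at 0 min of tgs1 read 1.32 and the first array at 10 min 0.24.

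RPL17B and RPP1B were already high before the shift. RPL17B, at the tunnel exit, was at 0.91, 0.68, 1.08 and 1.10 at 0, 10, 25 and 40 min in tgs1 and at 0.96, 0.95, 1.25 and 1.08 in ynr004w. RPP1B was at 1.0, 0.82, 0.93 and 1.14 in tgs1 and at 0.79, 0.82, 1.12 and 1.02 in ynr004w. At the other end the lowest contrasts at 16 °C were RPL16B at 0.17 in tgs1 and RPL18B at 0.17 in ynr004w, and both passed over pair means but not over single arrays (adjusted p = 0.139 and 0.105). No member passed in the comparison of tgs1 with ynr004w at 16 °C, and the member differences ran from -0.16 to 0.18 with a median of 0.02 (none with an unadjusted p under 0.05, and 0.0% of linked genes called by either fit).

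**Figure D4:**
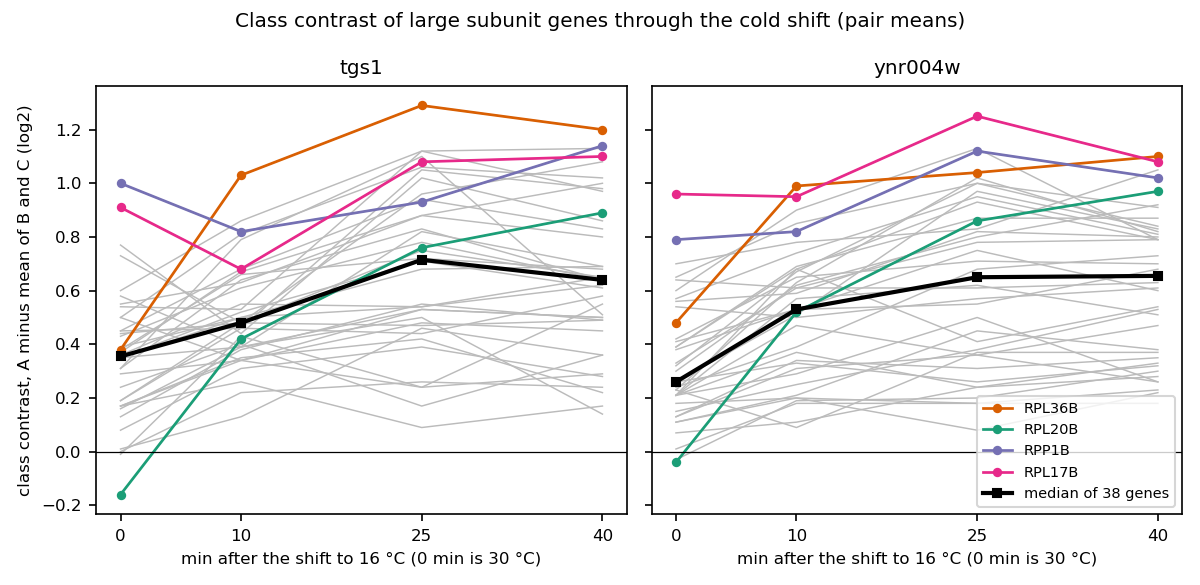
Class contrast (class A minus the mean of classes B and C, log2, pair means) of the 38 linked large subunit genes against time after the shift to 16 °C in tgs1 and ynr004w; grey lines are single genes and the black line is their median. RPL20B starts near 0 and RPL36B near 0.4 and both climb, whereas RPL17B and RPP1B are near or above 0.8 at 0 min.

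Gene means showed no such change with temperature for any member by the test of the difference. By both fits 0 members passed for 16 °C against 30 °C in tgs1 and in ynr004w, beside 0.0% of all genes in each, with 14 and 11 members at an unadjusted p under 0.05. None passed for tgs1 against ynr004w at 16 °C either, beside 0.509% of all genes over pair means and 0.0% over single arrays, with 12 members at an unadjusted p under 0.05. Within each strain at 16 °C the highest gene means were those of RPP0 and both RPL17 copies. RPL17A was at 0.44 ± 0.04 (adjusted p = 2.01e-05) and 0.50 ± 0.04 (adjusted p = 7.41e-06) in tgs1 and ynr004w, and RPL17B at 0.40 ± 0.03 and 0.38 ± 0.03. Most of these RPL17 means came from the class A probe. At 16 °C the class contrast over pair means of both strains ran from 0.96 to 1.32 for RPL17A and 0.68 to 1.25 for RPL17B. At 30 °C RPL17A had already passed in ynr004w, at 0.37 ± 0.07, and RPL17B in both strains, at 0.24 ± 0.06 in each, but none of these 3 passed over single arrays (adjusted p = 0.0779, 0.288 and 0.278). Without its class A probe, RPL17B stood at -0.06 and -0.08 at 30 °C.

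Genes of the stalk were measured by 1 probe each, except RPP1B with 3. All 5 were higher in tgs1 at 16 °C, beside 46.1% of all genes and 54.4% of members called in either direction. In ynr004w at 16 °C 4 of 5 were higher (RPP1A at 0.07 did not pass), beside 32.8% of all genes and 61.8% of members. At 16 °C the mean of RPP1B rested on its class A probe. Its class contrast was 0.96 ± 0.07 in tgs1 and 0.99 ± 0.07 in ynr004w. Over single arrays only RPP0 and RPP2B passed in each strain. RPP0, the scaffold of the stalk, read 0.69 and 0.62, 0.37 and 0.83, and 0.22 and 0.42 on the tgs1 arrays at 10, 25 and 40 min, against -0.17 and 0.20 at 0 min. This gave 0.52 ± 0.06 (adjusted p = 0.000134, 1.3e-05 over single arrays) at 16 °C. In ynr004w RPP0 read 0.22 and 0.27 at 0 min and 0.10 to 0.49 afterwards, so those arrays overlapped, and it was at 0.36 ± 0.06 (adjusted p = 0.00157, 0.00125 over single arrays).

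Among the P1 and P2 genes, which encode the acidic dimers bound to P0, RPP2B stood out. It was at 0.29 ± 0.04 in tgs1 and 0.22 ± 0.04 in ynr004w at 16 °C, and all 12 arrays were above 0. In isy1 it read 0.73 and 0.43, or 0.58 ± 0.07 (adjusted p = 0.000111, 8.42e-05 over single arrays). RPP2A was at 0.12 there and did not pass, so the RPP2 pair differed by -0.46 ± 0.08 (adjusted p = 1.14e-05). In csn9 the stalk genes parted: RPP0 read 0.29 and 0.76, or 0.53 ± 0.10 (adjusted p = 0.00546, 0.0213 over single arrays), while RPP2B was at -0.29 ± 0.07 and RPP2A at -0.24 ± 0.06 (-0.65 and 0.18 on the arrays), with adjusted p = 0.109 and 0.471 over single arrays. In pci8 RPP1B, RPP2A and RPP2B were lower, at -0.24, -0.20 and -0.26, and RPP0 was at 0.08; none of these passed over single arrays.

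Some members were low in csn12 and differed in sign between the log-phase strains. RPL41A, which encodes a very small basic protein, was at -0.53 in csn12, -0.52 in ist3, -0.55 in csn9 and -0.31 in pci8 and at 0.55 in isy1, each ± 0.07. It read -0.32 and -0.75 on the csn12 arrays and 0.00 and 1.10 on the isy1 arrays, but over single arrays it passed in none of the 5 (adjusted p from 0.12 to 0.535). RPL39, which lines the exit tunnel, read -0.71 and -0.31 in csn12, or -0.51 ± 0.07 (adjusted p = 0.000289, 0.00328 over single arrays). It was at -0.37 in csn9 and -0.29 in pci8 (adjusted p = 0.0715 and 0.187 over single arrays) but at 0.25 in ist3 and in isy1 (0.117 and 0.147 there), and its class C probe reached -1.21 in csn12, the lowest member probe of that strain. RPL38 was at -0.42 in csn12 and 0.41 in isy1 (adjusted p = 0.0756 and 0.0611 over single arrays), and RPL37B and RPL42B were at -0.44 and -0.43 in csn12.

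The highest gene means of ist3 were RPL20B at 0.69 ± 0.08, RPL40A, which encodes a ubiquitin fusion, at 0.68 ± 0.07, and RPL33A at 0.58 ± 0.05. All 3 passed over single arrays (adjusted p = 0.00129, 0.00146 and 0.000943). RPL33A was at -0.06 without its class A probe, which read 1.61 and 2.11 on the ist3 arrays, so its high gene mean rested on that probe. In isy1 the lowest after RPL26B were RPL35B (-0.60 ± 0.06), RPL27B (-0.57 ± 0.06), RPL36A (-0.52 ± 0.06) and RPL20B (-0.50 ± 0.08), each also lower over single arrays. RPL20B thus had a high mean in ist3, 0.80 and 0.57 on its arrays, and a low mean in isy1, -0.86 and -0.13.

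In csn9 and pci8 the higher members included RPL37A, RPL11A and genes of the RPL13 and RPL17 pairs. RPL37A read 0.40 and 0.37 in csn9 and 0.40 and 0.63 in pci8, or 0.38 ± 0.06 and 0.52 ± 0.06 (adjusted p = 0.0022 and 0.0005; 0.0484 and 0.00893 over single arrays). RPL11A, whose product binds 5S rRNA, read 0.22 and 0.78 in pci8, or 0.50 ± 0.08 (adjusted p = 0.00198). RPL13A was at 0.41 in csn9, RPL13B at 0.34 and 0.37 in csn9 and pci8 (adjusted p = 0.233 and 0.193 over single arrays), and RPL17A at 0.37 and 0.36. RPL34B was lower in both over pair means, at -0.17 and -0.24, but not over single arrays (adjusted p = 0.712 and 0.407). Over all 14 pairs it was the only member with no pair mean above 0. In csn12 RPL19A (0.35), RPL26A (0.34) and RPL26B (0.25) were the higher ones named, none of which passed over single arrays (adjusted p = 0.0858, 0.0669 and 0.388).

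RPL43A lies next to the deleted THP3 gene in the RefSeq gene table of assembly R64. It was the member called higher in YPR045C, at 0.33 ± 0.08 (adjusted p = 0.0237, but 0.606 over single arrays), with 0.20 and 0.45 on the arrays. Its values in the other 13 pairs ran from 0.09 to 0.42, so YPR045C was within their range. All 14 pair means of RPL43A were above 0, which RPL36B alone shared. Both means leaned on the class A probe at 16 °C. In tgs1 the class contrast there ran from 0.53 to 1.12 for RPL43A and from 1.03 to 1.29 for RPL36B.

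Paralogs were compared as the gene mean of the A copy minus that of the B copy. On the array 49 gene pairs could be formed in this way, of which 24 are members. Their products are alike or nearly alike, and how well the probes separate the copies is not stated, so cross-hybridisation would pull such a difference towards 0. In ynr004w at 16 °C 10 of 24 member pairs were higher and 4 lower beside 61.2% of all pairs called, in tgs1 at 16 °C 8 and 4 beside 57.1%, in isy1 8 and 3 beside 61.2% and in ist3 6 and 3 beside 49%. In csn12 3 were higher and 3 lower (20.4%), in YPR045C 3 and 1 (14.3%), in csn9 3 and 0 (10.2%) and in pci8 5 and 1 (24.5%). At 30 °C 3 were higher in tgs1 (20.4%) and 1 in ynr004w (6.12%). The called share of member pairs was below that of all pairs in ist3 and isy1 (37.5% and 45.8%) and within a few points of it in ynr004w at 16 °C (58.3%).

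Over pair means RPL26 and RPL27 passed in 7 of the 10 groups each, the most of any pair. RPL36 passed in 5, with larger differences in csn12 and isy1. The arrays of RPL27 had opposite signs in csn12 (-0.06 and 1.02), in YPR045C (-0.24 and 0.82) and in every ynr004w pair at 16 °C. In tgs1 they did so at 10 and 40 min (-0.41 and 0.51, -0.23 and 0.66). Both its arrays were above 0 in ist3, isy1 and tgs1 at 30 °C. The single-array fit gave RPL27 an adjusted p of 9.83e-06 in ist3 but 0.145 in tgs1 at 30 °C. In RPL36 the A copy lay below the B copy on both arrays of csn12 (-0.41 and -0.72), ist3 (-0.55 and -0.89) and isy1 (-0.79 and -0.71) and on all 12 arrays at 16 °C. The differences were -0.57 ± 0.08 in csn12 (adjusted p = 8.14e-07), -0.72 ± 0.08 in ist3 (adjusted p = 4.53e-09) and -0.75 ± 0.08 in isy1 (adjusted p = 7.57e-10). At 16 °C they were -0.43 ± 0.05 in tgs1 and -0.31 ± 0.05 in ynr004w, and all 5 passed over single arrays. At 30 °C the pair stood at -0.07 in tgs1 and -0.12 in ynr004w, and in csn9 and pci8 at 0.12 and 0.15. By the test of 16 °C against 30 °C 1 member pair passed in each strain, RPL36 in tgs1 and RPL35 in ynr004w, beside 2.04% of all pairs in each, and 5 member probes passed in tgs1, beside 0.481% of all named probes. Within RPL36 the class C probes differed in all 5 groups, by -0.78 in csn12, -0.92 in ist3, -1.66 in isy1, -0.46 in tgs1 at 16 °C and -0.30 in ynr004w at 16 °C. The class A probes differed by -0.42, -1.13, 0.17, -0.65 and -0.46 in the same order and the class B probes by -0.50, -0.10, -0.76, -0.19 and -0.16, of which class A in isy1 and class B in ist3 did not pass. Over single arrays class A in csn12 and class B in ynr004w did not pass either (adjusted p = 0.308 and 0.107).

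RPL26 ran the other way between strains. The A copy was above the B copy by 0.46 ± 0.08 in isy1 (0.48 and 0.44 on the arrays), 0.48 ± 0.05 in tgs1 at 16 °C and 0.30 ± 0.05 in ynr004w at 16 °C, and on all 16 arrays of the cold-shift strains. In YPR045C and pci8 it was below, at -0.27 ± 0.08 and -0.31 ± 0.08 (adjusted p = 0.0877 and 0.031 over single arrays). The A copy of this pair had 3 probes and the B copy 2, so the means do not rest on like probes. At 30 °C the pair already differed by 0.33 ± 0.08 (adjusted p = 0.00203) and 0.36 ± 0.08 (adjusted p = 0.00101) in tgs1 and ynr004w.

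In ist3 the RPL27, RPL33 and RPL40 pairs had the largest positive differences. RPL27A was above RPL27B by 0.73 ± 0.08 (0.35 and 1.12 on the arrays, adjusted p = 6.36e-09), RPL33A above RPL33B by 0.53 ± 0.08 (0.59 and 0.48) and RPL40A above RPL40B by 0.49 ± 0.09. For RPL33 the class A probes alone differed by 1.5 ± 0.10 (adjusted p = 7.97e-08), and for RPL27 class A and class B differed by 1.05 ± 0.12 and 1.09 ± 0.11. The RPL35 pair was at 0.43 ± 0.08 in isy1, where RPL35B fell in its class B and C probes (-0.90 and -0.85). In csn9 and pci8 RPL21A was above RPL21B by 0.44 ± 0.08 and 0.33 ± 0.08 (adjusted p = 9.51e-05 and 0.00202), with 0.47 and 0.40, and 0.32 and 0.34 on the arrays. Their class B probes carried it, with differences of 0.92 ± 0.10 and 0.74 ± 0.10.

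Some class differences had opposite signs within 1 pair, which the gene means averaged out. In isy1 RPL2A exceeded RPL2B by 1.02 ± 0.12 in class A and lay below it by -0.77 ± 0.10 in class B, and both passed over single arrays; the gene means differed by 0.10. RPL16 in ist3 was at 0.61 ± 0.10 in class A and -0.59 ± 0.13 in class B, with a gene mean difference of 0.00. Of 54 such within-class differences 15 were higher and 7 lower in ist3 (47.2% of all within-class differences called) and 16 higher and 10 lower in isy1 (61.1%).

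**Figure D5:**
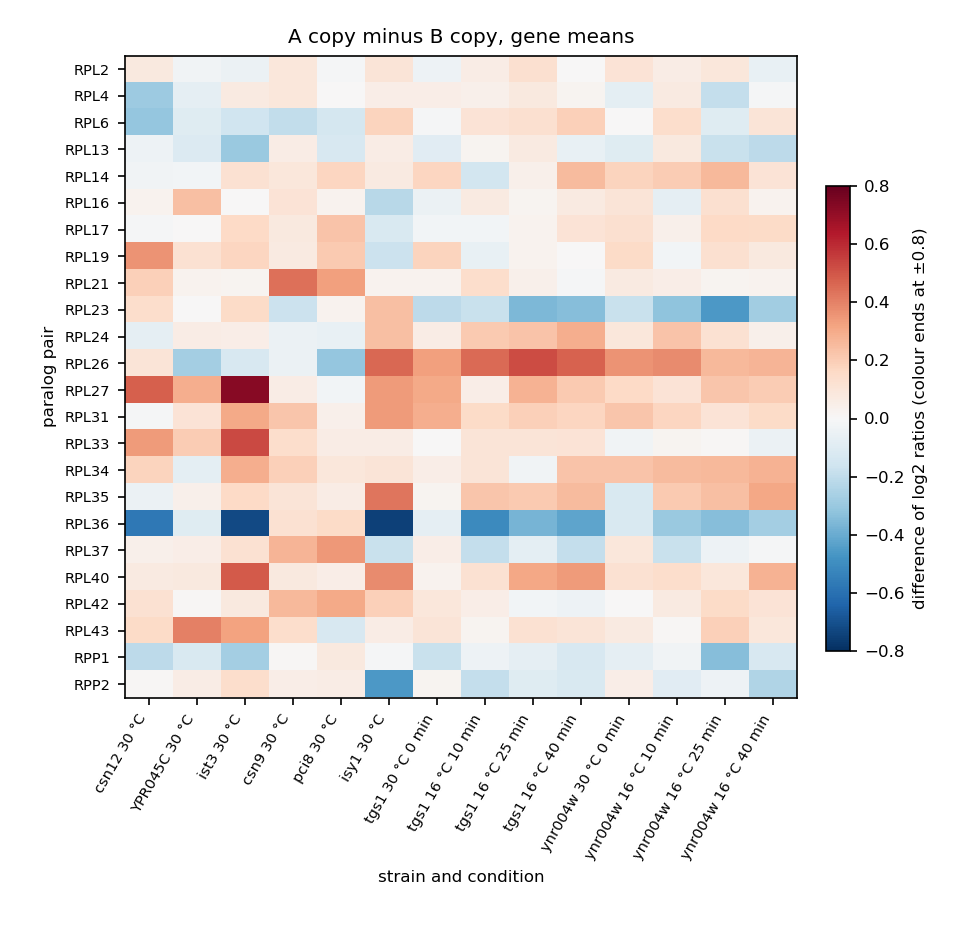
A copy minus B copy (difference of gene-mean log2 ratios, colour) for the 24 large subunit paralog pairs (rows) in the 14 conditions (columns). RPL36 is negative in csn12, ist3, isy1 and at 16 °C, RPL26 is positive in isy1 and both cold-shift strains, and RPL27 in ist3 is the highest value at 0.73.

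Genes that build or control the subunit were read from lists of 36 assembly factors, of which 14 were measured, and 9 regulators, of which 6 were. In ist3 8 assembly factors were higher and 1 lower (64.3% called, near the 56.4% of all genes, median 0.25), among them SPB1, an rRNA methyltransferase, at 0.51 ± 0.07 and the helicases DRS1 at 0.48 ± 0.06 and MTR4 at 0.46 ± 0.07. RRP5, needed for the processing of pre-rRNA, was lower there at -0.47 ± 0.09 and in csn12 at -0.71 ± 0.09. Of these 5 values only that of MTR4 passed over single arrays (adjusted p = 0.0155; the others from 0.0528 to 0.188). At 16 °C 5 were higher and 1 lower in tgs1 and 5 higher and none lower in ynr004w (42.9% and 35.7%, near the 46.1% and 32.8% of all genes), with medians of 0.06 and 0.09. In isy1 3 were higher and 5 lower (57.1% beside 42.2% of all genes). The regulators had medians from -0.12 in csn12 to 0.05 in tgs1 at 16 °C. The 53 small subunit genes had gene-mean medians of 0.09 in ist3, -0.19 in isy1, 0.07 in tgs1 at 16 °C and 0.13 in ynr004w at 16 °C, against 0.07, -0.12, 0.10 and 0.13 for the large subunit.

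Members with 1 probe, on which no class contrast exists, had other medians than those with more in some strains. At 16 °C 10 of 17 were higher and none lower in tgs1, beside 168 higher and 167 lower of the 747 genes with 1 probe, and 8 were higher and none lower in ynr004w, beside 91 and 119. In isy1 their median was 0.12, with 4 higher and 3 lower (187 and 121 of the 747), against -0.17 with 2 higher and 23 lower among the 51 members with 2 to 4 probes. In ist3 it was -0.03, with 2 higher and 2 lower (198 and 250 of the 747), against 0.09 with 21 higher and 4 lower. The difference between these sets was not tested, and they are different genes.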

How the data were processed

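RNA of 8 yeast deletion strains and matched wild type was measured on 28 2-colour spotted arrays. The authors' deposited values are 1 log ratio per spot, read here as log2 of mutant over wild type; per the labels, mutant and wild-type RNA carried Cy5 and Cy3 in both orientations. The background correction, normalization, log base and direction of the deposited log2 values are not stated in these sources. Array medians lay between -0.0282 and 0.0279 and were set to 0. The 6 spots of each probe were averaged, then the 2 arrays of a dye swap, then the probes of a gene; 1 named probe that is no member was left out of the tests for missing values. The number of arrays, not a read depth, limits the precision.

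Gene means (982), probes (1456), class contrasts (187) and paralog differences (49) were fitted by lmFit and eBayes (limma 3.58.1, R 4.3.3) over 14 pair means in 10 groups, which left 4 residual degrees of freedom, with Benjamini-Hochberg adjustment over all features of a comparison at 0.05. The 3 time points at 16 °C were taken as replicates, and a group of 1 pair was assumed to vary like them. The array number marks the dye orientation, so the fit over 28 single arrays with a dye term is the fit with the replicate number as a block (17 residual degrees of freedom). It treats both arrays of a pair as separate samples. Probe classes were rebuilt from well positions, as in 188 linked genes, and class A was chosen per layout group from ist3 medians of genes that are not ribosomal. The wider linking of 220 genes and the paralog differences within a class were chosen after seeing the data.

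Members and gene lists were chosen with earlier results of these data known. Genes named by strain are members past the threshold with the same sign on every array, up to 5 highest and 5 lowest for gene means and up to 4 for the class contrast and paralogs, together with the stalk genes and RPL43A; others are named as exceptions or contrasts and were chosen after their values were seen. All 982 gene symbols (982 of 982) had a match in RefSeq's table for assembly R64. The fits of gene means, probes, class contrasts and paralog differences, over pair means and over single arrays with a dye term, were run on simulated data. There the arrays of a pair deviated by equal and opposite amounts, so the simulation cannot show how well a pair mean removes a dye effect. The other fits were not simulated. Alternatives were single arrays with and without a dye term, other spot and probe summaries, centring, scaling, a minimum of 3 spots and leaving out each time point at 16 °C. Probe sequences were not used here.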

Additional observations from a re-analysis of the deposited data

Results flagged for a closer look

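These results differed between 16 °C and 30 °C within a strain by the test of that difference over pair means (limma, Benjamini-Hochberg over all features). None of them passed over single arrays, where the smallest adjusted p was 0.0919. The class contrast of RPL20B was higher at 16 °C by 0.85 (adjusted p = 0.0438) and 0.82 (adjusted p = 0.0397) in tgs1 and ynr004w, and that of RPL36B by 0.79 (adjusted p = 0.00555) and 0.57 (adjusted p = 0.0397). The RPL36 paralog difference moved by -0.36 in tgs1 (adjusted p = 0.0188), and the RPL35 paralog difference by 0.38 in ynr004w (adjusted p = 0.00889). The RPL35 pair read -0.08 and -0.17 at 30 °C in ynr004w and 0.07 to 0.41 at 16 °C, with no overlap.

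Single probes that differed between the temperatures in tgs1 were the class A probe of RPL36B (0.69, adjusted p = 0.0136), probe 3 of RPL29 (0.44, adjusted p = 0.0374), and, each at an adjusted p of 0.0185, the class B probes of RPL40B (-0.62) and RPL35B (-0.61) and the class C probe of RPL36A (-0.47). Each of these differences sets 3 pairs at 16 °C against 1 pair at 30 °C. No group held the 4 samples that a search for a single outlying sample needs, since both arrays of a dye swap count as 1 sample.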

How the results depend on the processing

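Counts below are members called in either direction in the order csn12, YPR045C, ist3, csn9, pci8, isy1, tgs1 at 30 °C, tgs1 at 16 °C, ynr004w at 30 °C and ynr004w at 16 °C, unless groups are named. With the replicate block, that is over single arrays with a dye term, gene means gave 7, 0, 10, 4, 3, 10, 0, 16, 0 and 20 (over pair means 21, 2, 29, 23, 28, 32, 3, 37, 3 and 42), and single probes 15, 1, 44, 9, 8, 57, 7, 74, 3 and 52 (55, 18, 96, 48, 52, 98, 36, 117, 26 and 90). In that fit with the block the class contrast fell to 3 in csn12, 0 in YPR045C, 0 in csn9, 1 in pci8, 7 in tgs1 at 30 °C and 9 in ynr004w at 30 °C, and paralogs to 3 in csn12, 0 in YPR045C, 5 in ist3, 1 in csn9, 1 in tgs1 at 30 °C and 8 in ynr004w at 16 °C. The other counts stayed within 1.5 times. Without the dye term or block, gene means gave 1, 0, 3, 0, 1, 5, 0, 5, 0 and 9, probes 1, 0, 21, 2, 3, 24, 2, 32, 0 and 29, and paralogs 2, 0, 2, 0, 0, 4, 0, 4, 0 and 3. The class contrast then gave 0 in csn12, YPR045C, csn9 and pci8, 19 in ist3, 11 in isy1, 2 in tgs1 and 1 in ynr004w at 30 °C and 21 in ynr004w at 16 °C.

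With arrays scaled to the same spread, csn9 and pci8 gave 42 and 43 gene means, 89 and 90 probes and 21 and 17 class contrasts, csn9 gave 10 paralog pairs, and tgs1 at 30 °C gave 0 gene means and 22 probes. Scaling changed the split of higher and lower to 11 and 18 for gene means in csn12, 3 and 0 in YPR045C, 7 and 1 for the class contrast in YPR045C, 5 and 12 in pci8 and 8 and 2 for paralogs in csn9; centring on genes with 1 probe changed it to 2 and 0 for gene means in tgs1 at 30 °C. Without the class A probe, gene means gave 7 in tgs1 at 30 °C, and paralogs 5 in csn9 and 4 in ynr004w at 30 °C. There 3 named means changed sign to values near 0: RPL33A in ist3 (-0.06) and RPL17B in tgs1 and ynr004w at 30 °C (-0.06 and -0.08). This follows from the class A probe being the one above 0. The median of spots gave 2 paralog pairs in YPR045C, 5 in tgs1 and 5 in ynr004w at 30 °C. The median over probes gave gene means of 17 in ist3, 8 in tgs1 and 7 in ynr004w at 30 °C, and paralogs of 1 in YPR045C, 3 in pci8 and 2 in ynr004w at 30 °C.

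Leaving out each 16 °C time point in turn gave 0 to 7 gene means in tgs1 at 30 °C, 1 to 5 in ynr004w at 30 °C, 2 to 4 in YPR045C, 0 to 2 for 16 °C against 30 °C in tgs1 and 0 to 3 for tgs1 against ynr004w, the highest of each without tgs1 at 40 min. The class contrast ranged from 3 to 14 in YPR045C, 2 to 17 in csn9 and 6 to 12 in pci8, each highest without tgs1 at 10 min, and the lowest in YPR045C and csn9 without ynr004w at 40 min. Paralogs ranged from 1 to 3 in ynr004w at 30 °C, 1 to 4 in YPR045C and csn9, and 7 to 15 in ynr004w at 16 °C (9 without its 25 min pair and 7 without its 40 min pair). No count moved by over 1.5 times with values left uncentred, centred on genes with 1 probe or held to 3 spots. Except where stated, the cause of a change was not tested. A group of 1 pair cannot show its own spread.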
